A study of Arabidopsis thaliana with 6 samples.

Results

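The aquaporin family of *Arabidopsis thaliana* was examined in root tips of *bron-2* mutant and wild-type seedlings. The family was taken as the 35 loci named as plasma membrane intrinsic proteins (PIP, 13 loci), tonoplast intrinsic proteins (TIP, 10 loci), NOD26-like intrinsic proteins (NIP, 9 loci) and small basic intrinsic proteins (SIP, 3 loci), and all 35 were found among the 33560 genes of the table. Loci were included by gene name and not by a cutoff on measured values, although the members were chosen with earlier results of these data known. *bron-2* is a T-DNA insertion line (SALK_046220C) in AT1G75710, which encodes the C2H2 transcription factor BRONTOSAURUS (BRON), and the wild type was Columbia-0, the accession used as control throughout the study. No treatment was applied to either genotype. Seedlings were 5 days old, and about 2 mm of root tip was collected from seedlings grown in long days at 22 °C on medium with sucrose. Each genotype had 3 biological replicates of 10 plates, so that every library is a pool of many seedlings, and *bron-2* is a single insertion allele. The study sequenced these libraries to ask which transcripts BRON modulates in the root.

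Aquaporins are membrane channels that let water, and in some members small uncharged solutes, pass down their gradients. Each polypeptide crosses the membrane several times and folds so that a pair of short loops, each carrying an asparagine-proline-alanine (NPA) box, meets in the middle of the pore. PIPs sit mainly in the plasma membrane and TIPs in the vacuole membrane, and both serve water transport across root cells and the swelling of cells during elongation. NIPs carry solutes such as boric acid, arsenite or lactate, and SIPs reside in the endoplasmic reticulum.

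The NPA boxes are the feature by which the family is recognised, and they vary between the subfamilies described here. In the TAIR10.1 coding sequences from RefSeq, 27 of the 35 members had NPA in both boxes, including every PIP and TIP, whereas 8 members, all NIPs or SIPs, had another last residue in at least 1 box. The following stretches show one box each, 5′ to 3′ on the coding strand, with the 9 bases of the box in capitals. A PIP and a TIP are shown with NPA, and the NIPs and the SIP, each among the highest members of its subfamily, as carriers of NPG, NPS, NPV and NPT.
PIP2;7 box 2 (chr4:16709665-16709709, plus): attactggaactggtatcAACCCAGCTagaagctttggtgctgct
TIP1;1 box 1 (chr2:15445724-15445768, plus): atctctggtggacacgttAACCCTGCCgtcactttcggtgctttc
NIP1;1 box 2 (chr4:10421896-10421940, minus): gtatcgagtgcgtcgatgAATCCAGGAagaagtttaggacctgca
NIP5;1 box 1 (chr4:6432351-6432395, minus): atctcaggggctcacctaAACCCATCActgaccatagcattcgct
NIP5;1 box 2 (chr4:6431677-6431721, minus): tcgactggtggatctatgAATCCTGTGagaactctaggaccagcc
SIP1;1 box 1 (chr3:1073798-1073842, minus): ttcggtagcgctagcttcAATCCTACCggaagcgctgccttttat

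Sequence shared between members decides how well reads can be told apart, and 1 neighbouring pair shares much of it. PIP2;2 (AT2G37170) and PIP2;3 (AT2G37180) lie next to each other on chromosome 2, on opposite strands, and 813 of the 858 bases of their coding sequences (94.8%) are identical. The longest stretch found in both, 242 bases of coding sequence interrupted by an intron in the genome, is printed once because it is the same in PIP2;2 (chr2:15614255-15614617, minus) and PIP2;3 (chr2:15617953-15618315, plus). It begins at base 175 of the coding sequence and holds the first NPA box.
PIP2;2 and PIP2;3: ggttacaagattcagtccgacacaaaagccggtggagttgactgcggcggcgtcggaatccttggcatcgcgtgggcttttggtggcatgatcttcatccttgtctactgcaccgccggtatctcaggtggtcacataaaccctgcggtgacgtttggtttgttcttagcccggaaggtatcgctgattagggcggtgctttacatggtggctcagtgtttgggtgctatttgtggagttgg
For reads of 100 bases, 11.5% of the start positions in PIP2;2 transcripts and 12.8% of those in PIP2;3 transcripts give a read that fits both genes. Their separate values are therefore uncertain to the extent that the authors' counting divided such reads, which the sources used here do not describe. Among the other tested members the shared part was 1.93% for TIP2;1, 4.24% for NIP3;1, 3.74% for SIP2;1 and 0 for the rest.

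Values are FPKM, that is read fragments scaled to transcript length and to the size of the library, as the authors deposited them, so levels can be set side by side between genes. The 17107 genes averaging 1 FPKM or more across the 6 libraries were compared with limma on log2(FPKM + 1), and an unadjusted p below 0.05, the cutoff used in the study, is called here passing the unadjusted threshold. BRON itself had 1.25, 0.925 and 1.10 FPKM in *bron-2* and 17.9, 16.1 and 17.3 FPKM in wild type. The *bron-2* mean was 6.38% of the wild-type mean, and BRON fell by 3.12 on the log2(FPKM + 1) scale (SE 0.11, limma adjusted p = 7.91e-05), in the direction given by the labels. The 6 libraries had similar FPKM sums, between 791546 and 812383, and the number of reads is not known from FPKM. The smallest steps between low values put the depth of the *bron-2* libraries at 1.20 to 1.25 times, and that of the wild-type libraries at 0.973 to 1.11 times, the depth of wild-type replicate 1.

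Of the 35 members, 26 reached this average and were tested, and 9 did not. 5 members, all of them PIPs, were higher in *bron-2* at the unadjusted threshold of limma and none was lower. Among all genes tested 9.79% passed this threshold in either direction 4.03% passed it as higher and 5.76% as lower. None of the 26 passed an adjusted p of 0.05, for which the share of all genes was 0.0818%, and the smallest limma adjusted p of a member was 0.264. The differences were small: over the 26 members the median log2 fold change was 0.13, from -0.28 for NIP3;1 to 0.51 for PIP2;8, against a median of -0.001 over all genes tested. Without wild-type replicate 1 the median of the members was 0.083. 22 members had a positive difference and 4, all NIPs, a negative one, while 49.7% of all genes had a positive one. Signs turned negative without wild-type replicate 1 for PIP2;1, PIP2;3, TIP2;2, TIP2;3, NIP1;2 and SIP1;1, and positive for NIP1;1 and NIP5;1. In 3 members every *bron-2* library exceeded every wild-type library, which held for 7.06% of all genes, and in none of the 26 was it the other way round, which held for 8.67% of all genes. Because the 26 values come from the same 6 libraries, they are not independent of each other, and the list as a whole was not tested.

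**Figure D1:**
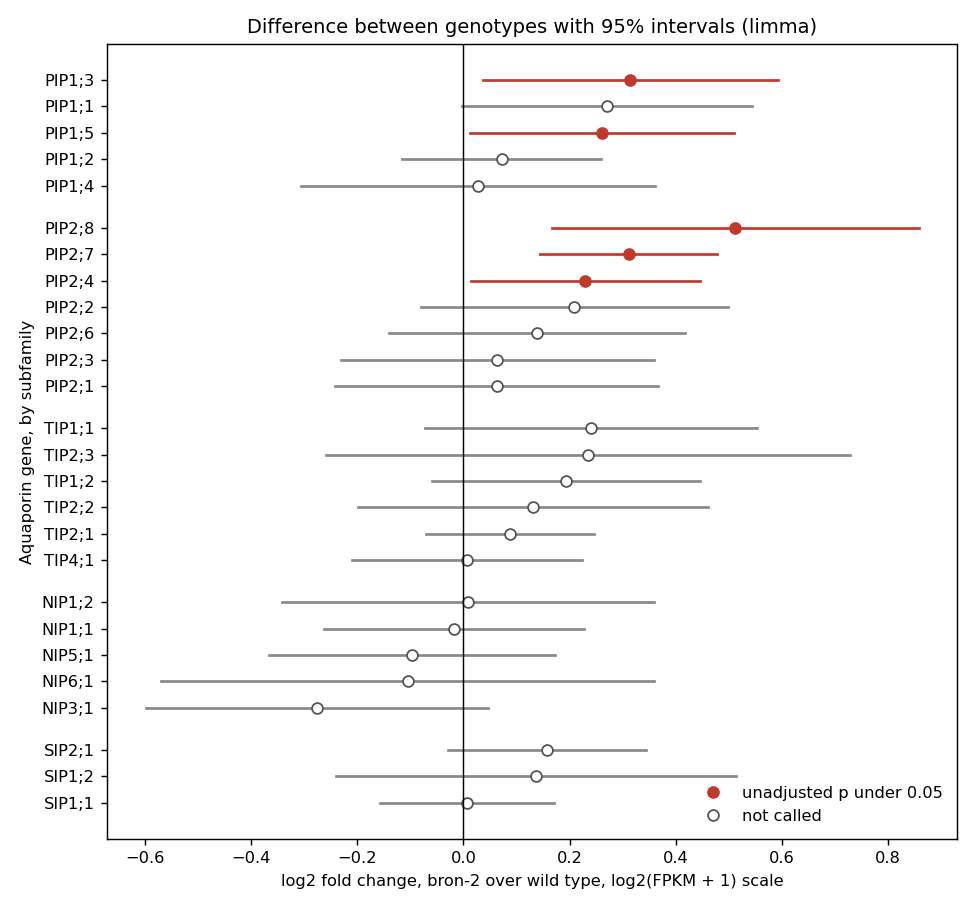
Difference between *bron-2* and wild type for the 26 tested aquaporins, as the log2 fold change on the log2(FPKM + 1) scale (x axis) with its 95% interval from limma, by subfamily (y axis). Filled points mark the 5 members with an unadjusted p under 0.05, all of them PIPs, and the 4 points left of 0 are NIPs.

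Aquaporin transcripts were among the most abundant of the root tip in both genotypes. In wild type 10 members stood within the 100 highest genes. TIP1;1 held rank 3 of all genes and TIP1;2 rank 5, followed among the aquaporins by PIP1;2 at rank 18, PIP2;1 at 22, PIP1;1 at 24 and PIP2;7 at 26. Over all 6 libraries 10 members averaged at least 1000 FPKM and 19 at least 100 FPKM. When the 26 members were put in order of their wild-type mean FPKM, 16 of the 25 neighbouring pairs had overlapping wild-type values, so that most of the order is not fixed by these replicates. The 9 steps that exceeded the spread came after TIP1;2, PIP1;3, PIP2;3, PIP1;4, SIP2;1, NIP5;1, PIP2;6, NIP3;1 and SIP1;2.

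**Figure D2:**
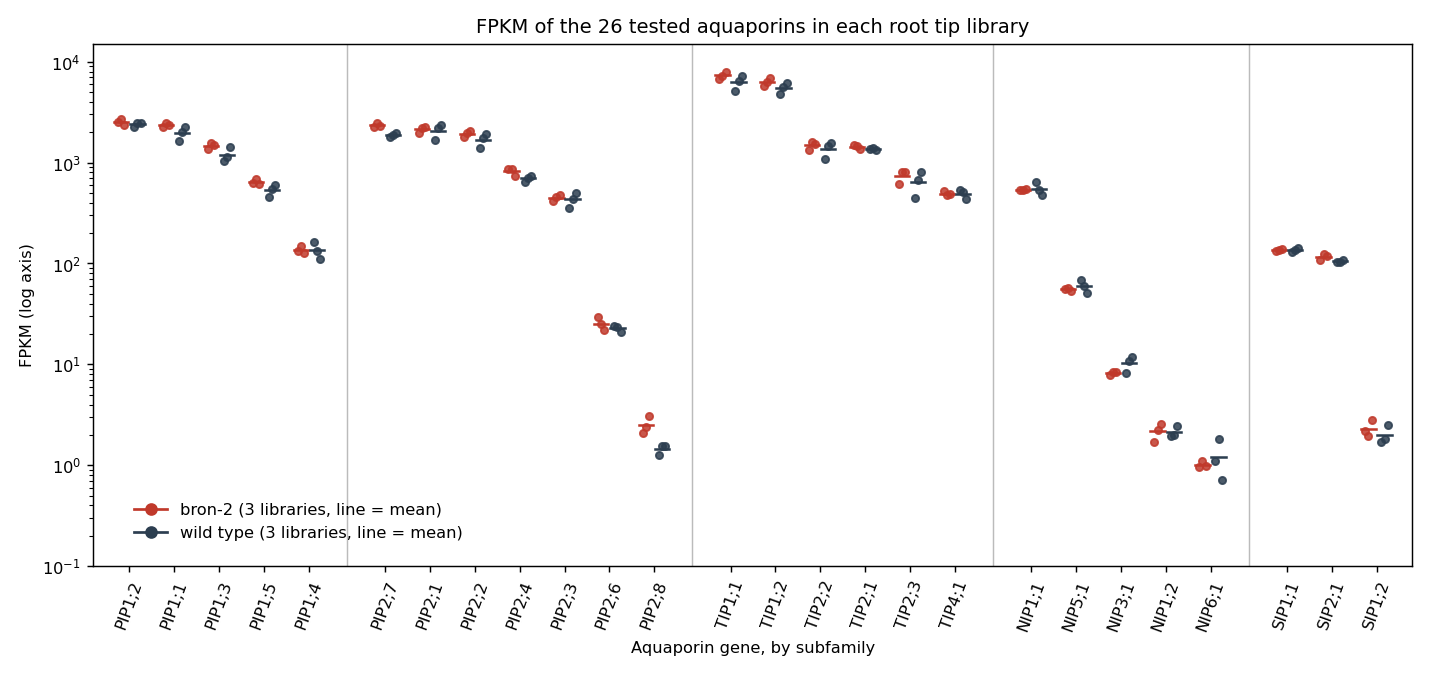
FPKM (y axis, log scale) of each tested aquaporin in the 3 *bron-2* libraries (left of each pair) and the 3 wild-type libraries (right of each pair), grouped as PIP1, PIP2, TIP, NIP and SIP on the x axis, with lines for the means. TIP1;1 and TIP1;2 lie highest, and the genotypes lie close together within most members.

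PIP1 proteins depend largely on partnership with PIP2 proteins to reach the plasma membrane. All 5 PIP1 genes had a positive difference, as had 49.7% of all genes. Of the 5 genes 2 were higher in *bron-2* at the unadjusted threshold, which 4.03% of all genes passed as higher. PIP1;2 (AT2G45960, chr2:18910081-18911982, plus strand, 4 exons), a major PIP of roots that contributes to their hydraulic conductivity, was the highest PIP1, with 2500, 2701 and 2345 FPKM in *bron-2* and 2250, 2472 and 2451 FPKM in wild type. These groups overlapped, and the log2 fold change was 0.07 (95% interval -0.12 to 0.26, limma adjusted p = 0.816). PIP1;1 (AT3G61430, chr3:22733243-22735394, plus strand, 5 exons), another abundant root PIP, had 2236, 2483 and 2364 FPKM in *bron-2* and 1648, 2007 and 2261 FPKM in wild type. Its lowest *bron-2* library lay just below the highest wild-type library, and the log2 fold change of 0.27 (SE 0.12) just missed the unadjusted threshold (limma adjusted p = 0.519). Without wild-type replicate 1 it was 0.15.

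PIP1;3 (AT1G01620, chr1:225665-227543, minus strand, 5 exons) had 1367, 1553 and 1503 FPKM in *bron-2* and 1038, 1131 and 1412 FPKM in wild type. 2 *bron-2* libraries exceeded all wild-type libraries and the remaining one fell between wild-type replicates 2 and 3, with a log2 fold change of 0.31 (SE 0.12, limma adjusted p = 0.461). PIP1;5 (AT4G23400, chr4:12220641-12222468, plus strand, 4 exons) had 625, 686 and 613 FPKM in *bron-2* and 461, 552 and 600 FPKM in wild type. Here the groups did not overlap, although *bron-2* replicate 3 and wild-type replicate 3 were close, and the log2 fold change was 0.26 (SE 0.11, limma adjusted p = 0.492). The call of PIP1;3 was lost when *bron-2* replicate 2 or 3 or wild-type replicate 1 or 2 was left out, with log2 fold changes of 0.28, 0.30, 0.22 and 0.28. The call of PIP1;5 was lost when any library but wild-type replicate 3 was left out, with log2 fold changes from 0.15, without wild-type replicate 1, to 0.29, without *bron-2* replicate 3. PIP1;4 (AT4G00430), which is known to pass hydrogen peroxide into cells during immune responses, averaged 136 ± 11.3 FPKM in *bron-2* and 135 ± 27.2 FPKM in wild type (SD, n = 3 each).

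PIP2 proteins form efficient water channels by themselves. The 7 tested PIP2 genes all had a positive difference, as had 49.7% of all genes. PIP2;1 (-0.080) and PIP2;3 (-0.069) turned negative without wild-type replicate 1. PIP2;4, PIP2;7 and PIP2;8 were higher in *bron-2* at the unadjusted threshold, which 4.03% of all genes passed as higher. PIP2;7 (AT4G35100, chr4:16708361-16710407, plus strand, 5 exons), a plasma membrane water channel whose delivery to the membrane involves the SNARE proteins SYP61 and SYP121, had 2257, 2445 and 2328 FPKM in *bron-2* and 1805, 1873 and 1987 FPKM in wild type. The groups were well apart, with each within a narrow range, and the *bron-2* mean was 1.24 times the wild-type mean, a log2 fold change of 0.31 (SE 0.07, limma adjusted p = 0.264). PIP2;8 (AT2G16850, chr2:7301334-7303509, plus strand, 4 exons), the member with the largest log2 fold change, was expressed at a far lower level, with 2.08, 2.42 and 3.07 FPKM in *bron-2* and 1.28, 1.54 and 1.55 FPKM in wild type. The groups were again apart, with a ratio of means of 1.73 and a log2 fold change of 0.51 on the log2(FPKM + 1) scale, which understates changes at such low levels (SE 0.15, limma adjusted p = 0.347). PIP2;7 passed the unadjusted threshold in all 13 alternative analyses, and PIP2;8 in all 12 that tested it.

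The upstream sequences of both genes are shown because they were the only members that passed the unadjusted threshold in every analysis that tested them. Each run is the 250 bases before the annotated gene start in TAIR10.1 (RefSeq), with the TATAAA motif, read on either strand, in capitals where present.
PIP2;7 (chr4:16708111-16708360, plus): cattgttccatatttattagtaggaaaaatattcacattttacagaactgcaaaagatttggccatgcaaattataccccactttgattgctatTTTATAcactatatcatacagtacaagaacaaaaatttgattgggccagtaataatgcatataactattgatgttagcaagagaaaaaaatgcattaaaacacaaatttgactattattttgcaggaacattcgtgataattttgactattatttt
PIP2;8 (chr2:7301084-7301333, plus): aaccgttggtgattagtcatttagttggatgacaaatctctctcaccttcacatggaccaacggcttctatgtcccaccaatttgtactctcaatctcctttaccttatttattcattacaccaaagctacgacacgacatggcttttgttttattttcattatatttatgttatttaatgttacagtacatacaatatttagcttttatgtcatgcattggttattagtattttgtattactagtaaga
Since the study deals with brassinosteroid signalling, the windows were searched on both strands for the G-box hexamer CACGTG and for the brassinosteroid response elements, in the form CGTGTG or in the form CGTGCG, all of which are known to be bound by the brassinosteroid-responsive factors BES1 or BZR1. Neither PIP2 gene had any of them in this window. In the whole family 1 of 35 windows held 1 of the hexamers, that of NIP3;1 with CGTGTG, or 2.86% against 11.5% of 27561 gene windows of this length. TATAAA was present in 13 of 35 windows, 37.1% against 47.3% of all windows.

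PIP2;4 (AT5G60660, chr5:24375368-24377206, minus strand, 4 exons), a PIP found mainly in roots, had 863, 865 and 735 FPKM in *bron-2* and 644, 712 and 741 FPKM in wild type. *bron-2* replicate 3 lay within the wild-type range, and the log2 fold change was 0.23 (SE 0.09, limma adjusted p = 0.489). This call was lost without *bron-2* replicate 1 or 2 or wild-type replicate 1 or 2 (log2 fold changes of 0.19, 0.19, 0.17 and 0.24). PIP2;1 (AT3G53420, chr3:19803473-19805730, minus strand, 5 exons), a main root and guard cell water channel, had 1948, 2203 and 2278 FPKM in *bron-2* and 1679, 2182 and 2343 FPKM in wild type. Its groups overlapped, and the log2 fold change was 0.06 (95% interval -0.24 to 0.37, limma adjusted p = 0.915).

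The other tested PIP2 genes did not pass the threshold. PIP2;2, known to contribute to water uptake by roots, averaged 1942 ± 136 FPKM in *bron-2* and 1692 ± 273 FPKM in wild type, with a log2 fold change of 0.21 (limma adjusted p = 0.629), or 0.08 without wild-type replicate 1. Its neighbour PIP2;3, first described as the desiccation-responsive gene RD28, averaged 450 ± 29.3 FPKM in *bron-2* and 434 ± 74.0 FPKM in wild type, with a log2 fold change of 0.06 (limma adjusted p = 0.907). PIP2;6 (AT2G39010) averaged 25.4 ± 3.76 FPKM in *bron-2* and 22.9 ± 1.63 FPKM in wild type (SD, n = 3 each). PIP2;5 (AT3G54820), which stayed under the limit for testing, had 0.335, 0.814 and 0.571 FPKM in *bron-2* and 0.499, 0.705 and 0.633 FPKM in wild type, with full overlap.

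The TIPs made up more than any other subfamily of the aquaporin signal, and none of the 6 tested TIPs passed the unadjusted threshold, although all 6 had a positive difference. Without wild-type replicate 1 the log2 fold change was -0.024 for TIP2;2 and -5.1e-05 for TIP2;3, and the other tested TIPs stayed positive. TIP1;1 (AT2G36830, chr2:15445294-15446621, plus strand, 2 exons), the vacuolar channel known as gamma-TIP and typical of elongating cells, was the highest member of the family, with 6672, 7288 and 7992 FPKM in *bron-2* and 5098, 6411 and 7222 FPKM in wild type. Wild-type replicate 1 was the lowest library and the remaining values interleaved, with a log2 fold change of 0.24 (95% interval -0.07 to 0.55, limma adjusted p = 0.607), or 0.10 without wild-type replicate 1. TIP1;2 (AT3G26520, chr3:9722443-9723904, minus strand, 2 exons), its closest relative, had 5751, 6249 and 6905 FPKM in *bron-2* and 4835, 5642 and 6087 FPKM in wild type. Replicate 1 was again lowest in both genotypes, and the log2 fold change was 0.19 (95% interval -0.06 to 0.45, limma adjusted p = 0.608), or 0.10 without wild-type replicate 1.

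Among the TIP2 genes, whose proteins carry ammonia besides water, the SD of the wild-type libraries was wider than the difference between genotypes in 2 of 3. TIP2;3 (AT5G47450) averaged 742 ± 114 FPKM in *bron-2* and 643 ± 181 FPKM in wild type, with a log2 fold change of 0.24 whose 95% interval ran from -0.26 to 0.73. TIP2;2 (AT4G17340) averaged 1488 ± 139 FPKM in *bron-2* and 1370 ± 250 FPKM in wild type. TIP2;1 (AT3G16240), known as delta-TIP, was more even, with 1440 ± 63.5 FPKM in *bron-2* and 1354 ± 34.6 FPKM in wild type (SD, n = 3 each), and its gene overlaps annotated genes on the opposite strand. TIP4;1 (AT2G25810), which also carries urea, averaged 493 ± 24.8 FPKM in *bron-2* and 492 ± 51.5 FPKM in wild type, a log2 fold change of 0.01.

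The remaining TIPs were near or at 0. TIP1;3 (AT4G01470), a TIP of pollen, had 0.772, 0.323 and 0.165 FPKM in *bron-2* and 1.49, 0.406 and 0.536 FPKM in wild type. These values overlapped and fell below the limit for testing. TIP3;1, a TIP of seeds, was listed at 0 in all 6 libraries, and the seed TIP TIP3;2 and the pollen TIP TIP5;1 stayed below 0.5 FPKM in all of them.

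Of the 5 tested NIPs 4 had a negative difference, and none passed the unadjusted threshold of limma. Some of the signs depended on wild-type replicate 1. Without it the log2 fold change was 0.09 for NIP1;1 and 0.01 for NIP5;1, the most abundant NIPs, and -0.03 for NIP1;2. NIP3;1 (-0.42) and NIP6;1 (-0.13) stayed negative without that library. NIP6;1 turned positive (0.087) without wild-type replicate 2. NIP1;1 (AT4G19030, chr4:10421521-10423508, minus strand, 5 exons), known for arsenite and antimonite uptake, was the most abundant, with 533, 541 and 542 FPKM in *bron-2* and 636, 532 and 479 FPKM in wild type. The *bron-2* values were nearly identical and lay inside the wild-type range, with a log2 fold change of -0.02 (95% interval -0.26 to 0.23, limma adjusted p = 0.977). NIP5;1 (AT4G10380, chr4:6431161-6435396, minus strand, 4 exons), the boric acid channel through which roots take up boron, had 56.3, 56.8 and 53.7 FPKM in *bron-2* and 69.2, 60.2 and 50.5 FPKM in wild type. All 3 *bron-2* libraries lay inside the wild-type range, with a log2 fold change of -0.10 (95% interval -0.37 to 0.17, limma adjusted p = 0.828).

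NIP3;1 (AT1G31885), which has been linked to arsenite transport in roots, averaged 8.20 ± 0.343 FPKM in *bron-2* and 10.3 ± 1.94 FPKM in wild type (SD, n = 3 each). It had the lowest log2 fold change of the family, -0.28 (SE 0.14, limma adjusted p = 0.564), and became lower in *bron-2* at the unadjusted threshold when wild-type replicate 1 was left out (log2 fold change -0.42). NIP1;2 (AT4G18910), which takes part in aluminium tolerance, averaged 2.17 ± 0.435 FPKM in *bron-2* and 2.14 ± 0.279 FPKM in wild type. NIP6;1 (AT1G80760), a boric acid channel of shoot nodes, averaged 1.02 ± 0.0694 FPKM in *bron-2* and 1.22 ± 0.566 FPKM in wild type. The last of these overlaps a gene on the opposite strand, AT1G80750, and whether the counting used strand is not given in the sources used here.

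The other 4 NIP loci were below the limit for testing. NIP2;1 (AT2G34390), a lactate channel induced by low oxygen, had 0.263, 0.973 and 0.141 FPKM in *bron-2* and 0.489, 0.168 and 0.2998 FPKM in wild type. A single *bron-2* library was above 0.5 FPKM, and 56.2% of the 100-base stretches of this locus also occur in other annotated genes, so its values are uncertain. Both NIP4 genes, known from pollen, were listed at 0 in all 6 libraries, and NIP7;1, the boric acid channel of anthers, stayed below 0.5 FPKM throughout.

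None of the 3 SIPs, which reside in the endoplasmic reticulum, passed the threshold. SIP1;1 (AT3G04090, chr3:1071984-1074244, minus strand, 3 exons) had 133, 136 and 141 FPKM in *bron-2* and 130, 137 and 142 FPKM in wild type. The groups overlapped fully, with a log2 fold change of 0.01 (95% interval -0.16 to 0.17, limma adjusted p = 0.987). SIP2;1 (AT3G56950, chr3:21078297-21079925, minus strand, 4 exons) had 108, 126 and 118 FPKM in *bron-2* and 103, 103 and 108 FPKM in wild type. *bron-2* replicate 1 was within 1 FPKM of wild-type replicate 3, and the log2 fold change was 0.16 (SE 0.08, limma adjusted p = 0.569). SIP1;2 (AT5G18290) averaged 2.31 ± 0.455 FPKM in *bron-2* and 2.01 ± 0.427 FPKM in wild type (SD, n = 3 each). Both of these genes overlap annotated genes on the opposite strand.

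The family as a whole contributed 31405, 34287 and 34815 FPKM in the *bron-2* libraries and 25784, 30190 and 32611 FPKM in the wild-type libraries. This was 3.97%, 4.26% and 4.29% of all FPKM in *bron-2* and 3.25%, 3.79% and 4.03% in wild type, with overlap between *bron-2* replicate 1 and wild-type replicate 3. The ratio of the mean sums was 1.13, and 1.07 without wild-type replicate 1. PIP1, PIP2 and TIP sums had nearly the same ratio, 1.14 each, whereas it was 1.05 for SIP and 0.973 for NIP. Without wild-type replicate 1 the ratios lay close together, at 1.09 for PIP1, 1.07 for PIP2, 1.06 for TIP, 1.04 for SIP and 1.05 for NIP. The NIP sums had an SD of 5.44 FPKM in *bron-2* and 86.9 FPKM in wild type. In bulk tissue, a change in the number of cells that express a gene and a change in the transcript per cell cannot be told apart.

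**Figure D3:**
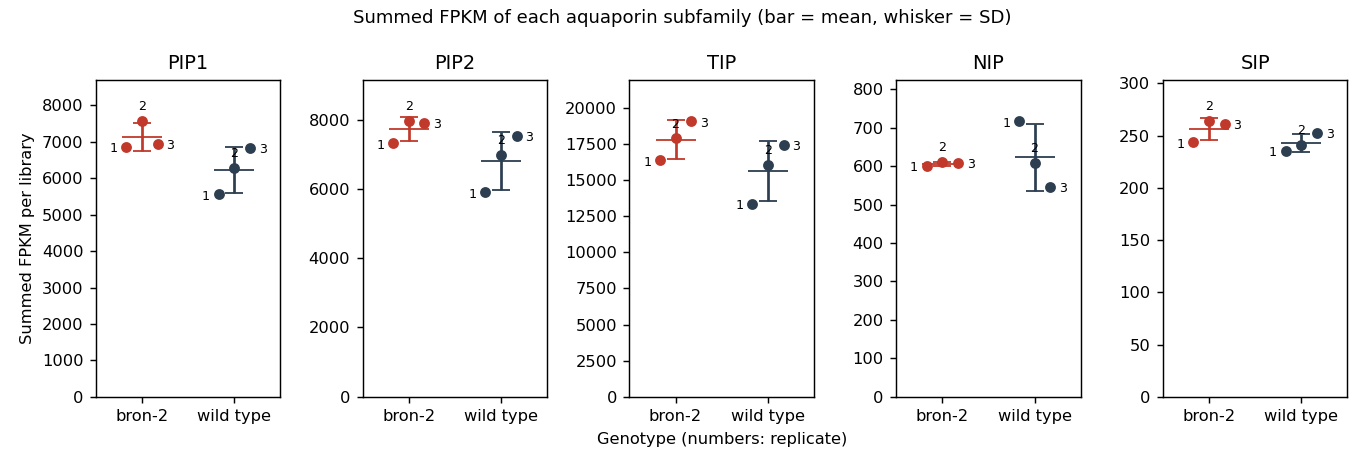
Summed FPKM of each aquaporin subfamily (y axis, from 0, a separate scale for each panel) in the 3 *bron-2* libraries and the 3 wild-type libraries, numbered by replicate, with the mean and SD. Wild-type replicate 1 has the lowest PIP1, PIP2, TIP and SIP sum and the highest NIP sum of the 6 libraries.

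Much of the family's pattern moved with single libraries. The summed FPKM of the family was lowest in replicate 1 and highest in replicate 3 in both genotypes. Wild-type replicate 1 was the lowest of the 6 libraries in 16 of the 26 tested members, and wild-type replicate 3 in 7. The median deviation of the 26 members from their own means was -0.01, 0.10 and 0.10 in the *bron-2* libraries and -0.22, -0.03 and 0.04 in the wild-type libraries on the log2(FPKM + 1) scale, while the same median over all genes stayed within 0.02 of 0 in each library. Without wild-type replicate 1, 2 members remained higher at the unadjusted threshold (PIP2;7 and PIP2;8) and NIP3;1 was lower. Among the 17105 genes of that fit 9.71% passed in either direction and 4.02% as higher. Without wild-type replicate 3, 8 members were higher, among 17103 genes of which 6.54% were higher.

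Most markers of the differentiated endodermis, the cell layer that forms the Casparian strip behind the meristem, followed a similar order of libraries. MYB36 did not, with 60.2, 54.5 and 51.1 FPKM in *bron-2* and 58.4, 59.4 and 54.5 FPKM in wild type (log2 fold change -0.06). The summed FPKM of the list was 2662, 3085 and 3575 in *bron-2* and 1815, 2548 and 3063 in wild type. This was a ratio of means of 1.26, or 1.11 without wild-type replicate 1. Of the 7 marker genes 2 were higher at the unadjusted threshold, which 4.03% of all genes passed as higher. These were the Casparian strip genes CASP2 and CASP5. Their log2 fold changes were 0.44 (limma adjusted p = 0.508) and 0.55 (limma adjusted p = 0.498). In both genes wild-type replicate 3 exceeded *bron-2* replicate 1, with 406 against 378 FPKM for CASP2 and 237 against 212 FPKM for CASP5. In none of the 7 did every *bron-2* library exceed every wild-type library, which held for 7.06% of all genes. Across the 7 markers the log2 fold changes had a median of 0.33. The median deviation of these markers was -0.58 in wild-type replicate 1 and between -0.14 and 0.39 in the other 5 libraries. The part of this shift in the aquaporin differences was not tested.

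**Figure D4:**
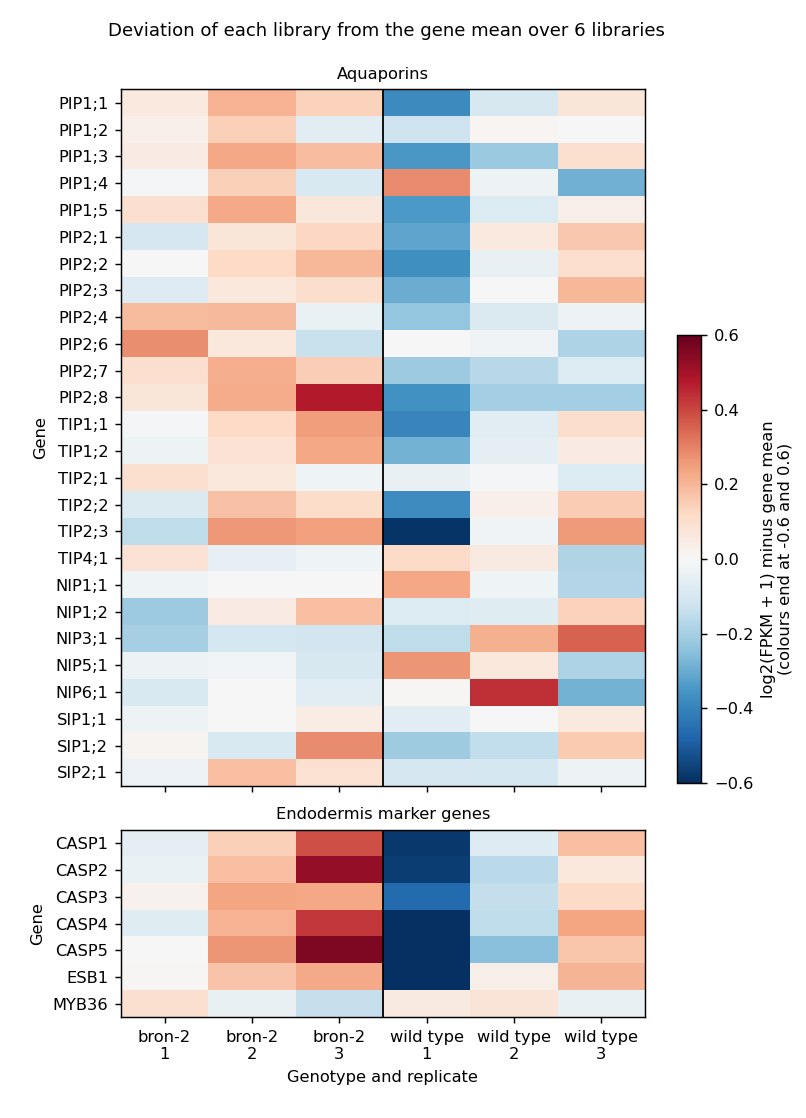
Deviation of each library from the mean over the 6 libraries, in log2(FPKM + 1) units (colour, red above and blue below the gene's mean), for the 26 tested aquaporins and the 7 endodermis markers (y axis), with the 3 *bron-2* libraries left of the 3 wild-type libraries (x axis). Wild-type replicate 1 is blue in most PIP and TIP genes and in 6 of the 7 endodermis markers.

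Other marker lists showed no comparable shift upward. None of the 5 root hair genes, 3 tested xylem genes or 3 root cap genes passed the unadjusted threshold of limma, with median log2 fold changes of -0.01, 0.04 and -0.20. Of the 4 tested genes of dividing cells, PLT2, a regulator of the stem cell niche, was lower in *bron-2* (log2 fold change -0.40, limma adjusted p = 0.465). All 4 had a negative difference, with a median log2 fold change of -0.15. Of the 4 photosynthesis genes, RBCS1A, a subunit of Rubisco, was lower (log2 fold change -0.64, limma adjusted p = 0.461). All 4 of these also had a negative difference, with a median of -0.34, and 5.76% of all genes were called lower. Their part in the aquaporin differences was not tested. Of 5 seed genes 3 were listed at 0 in all libraries.

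Genes that act together with aquaporins were read from fixed lists. Proton pumps set the gradients that drive solute uptake and hence water flow. Of 11 tested plasma membrane and vacuolar pump genes 1 was higher in *bron-2* at the unadjusted threshold, against 4.03% of all genes. This was AHA11, a plasma membrane H+-ATPase, with 11.4, 10.7 and 11.6 FPKM in *bron-2* and 8.38, 8.79 and 9.77 FPKM in wild type (log2 fold change 0.29, SE 0.10, limma adjusted p = 0.395). The groups did not overlap, which held in this direction for 7.06% of all genes, and the list's median log2 fold change was 0.0009. Of 4 tested boron transporter genes, whose products export the boron that NIP channels admit, none passed the unadjusted threshold of limma, and their median was 0.15.

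Of 10 tested regulators of aquaporin trafficking, phosphorylation and turnover, 1 was lower in *bron-2*, against 5.76% of all genes. This was RMA1, a RING-type ubiquitin ligase of the endoplasmic reticulum whose relative in pepper lowers the amount of PIP at the plasma membrane, with 30.6, 24.3 and 27.9 FPKM in *bron-2* and 34.4, 49.3 and 37.7 FPKM in wild type. The groups did not overlap, which held in this direction for 8.67% of all genes (log2 fold change -0.53, SE 0.15, limma adjusted p = 0.325). The other 9 regulators, among them SYP61 and SYP121, did not pass, and the median of the list was -0.03.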

How the data were processed

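Total RNA from root tips of 3 *bron-2* and 3 wild-type replicates was sequenced by the authors as 100-base single-end reads. Per the labels and methods, reads were mapped to TAIR10 with Cufflinks. Its version, the annotation, the use of strand and the treatment of reads with several matches are not given in the sources used here. The deposited values are FPKM per gene, 1 column per library, with no filter on low values. The *bron-2* columns carry another name in the table and were assigned through the study's own copy of it.

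All 6 columns were used without further scaling. Genes averaging 1 FPKM or more were compared in limma 3.58.1 (R 4.3.3) after taking log2(FPKM + 1) (lmFit, eBayes with trend, two-sided, Benjamini-Hochberg over the 17107 genes tested). The authors' test, PoissonSeq at an unadjusted p of 0.05, takes counts, and its cutoff was kept here for limma. No count of reads was used, so precision rests on the 3 replicates. The fit was tested on simulated data with independent noise for each gene, so that test does not cover shifts that many genes share within a library. Exact permutation tests (scipy 1.17.1) of 3 against 3 libraries cannot go below 0.1. Alternatives were no filter, a minimum mean of 5 FPKM, a pseudocount of 0.1, median scaling, quantile normalization, no trend, a replicate block and leaving out each library. Coordinates and sequences are from TAIR10.1.

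Members and lists were chosen with earlier results of these data known. Values per library are given for members that passed the unadjusted threshold or did not overlap and for the 2 highest of PIP1, PIP2, TIP, NIP and SIP. Other tested members are given by means, and those under 1 FPKM by library where any value exceeds 0.5. Genes of other lists are named where their unadjusted p is under 0.05, with MYB36, SYP61 and SYP121 named besides.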

Additional observations from a re-analysis of the deposited data

How the results depend on the processing

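The number of aquaporins passing the unadjusted threshold of limma, 5 among 26 tested, was 3 with no filter on low values, 3 with eBayes without the trend and 10 with the replicate block. Leaving out single libraries gave between 2 and 8. With no filter the 3 were PIP2;7, PIP2;8 and TIP3;2, the last of which was listed at 0 in *bron-2* and at 0.116, 0.126 and 0.111 FPKM in wild type. Among all genes, 1674 passed the unadjusted threshold, with 1053 to 2299 when single libraries were left out. At an adjusted p under 0.05, 14 genes passed, 7 with a mean of at least 5 FPKM and 8 to 33 when single libraries were left out. No aquaporin passed at an adjusted p in any of the 13 alternatives. The median log2 fold change of the tested members, 0.13, was 0.080 with no filter, 0.088 with quantile normalization and 0.083 to 0.18 when single libraries were left out, lowest without wild-type replicate 1.

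The replicate numbers were not treated as pairs. Over all genes tested, deviations of same-numbered libraries from their genotype mean correlated at 0.12, -0.01 and 0.19. The summed FPKM of the aquaporins nonetheless rose from replicate 1 to replicate 3 in both genotypes, as did that of the endodermis markers. Whether the numbers mark pairs was not tested. With the replicate block all 5 called members stayed higher and PIP1;1, PIP2;2, TIP1;1, TIP1;2 and TIP2;3 were added, giving 10. Among all genes 2253 (13.2%) were called with the block, and 960 (5.61%) were called higher.

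Signs changed only in members that were not called. Quantile normalization gave log2 fold changes of -0.0035 for PIP1;2, -0.055 for PIP2;1 and -0.00065 for TIP4;1. When single libraries were left out, the values ran from -0.11 to 0.17 for PIP1;4, -0.080 to 0.16 for PIP2;1, -0.069 to 0.18 for PIP2;3, -0.024 to 0.24 for TIP2;2, -5.1e-05 to 0.42 for TIP2;3 and -0.081 to 0.066 for TIP4;1. They ran from -0.11 to 0.093 for NIP1;1, -0.079 to 0.12 for NIP1;2, -0.21 to 0.010 for NIP5;1, -0.27 to 0.087 for NIP6;1 and -0.025 to 0.036 for SIP1;1. The causes were not tested. With 3 libraries per genotype and unknown read numbers, differences of the size seen here cannot be separated from the spread between libraries for most members.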

Other observations

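The ratio of neighbouring or closely related members within a library does not depend on the scaling of that library, and 7 such pairs, chosen after their values were seen, were compared. In 2 of them the genotypes did not overlap, and the share of other gene pairs for which this holds was not computed. PIP2;2 to PIP2;3 had FPKM ratios of 4.31, 4.26 and 4.37 in *bron-2* and 3.90, 3.97 and 3.83 in wild type (two-sided exact permutation p = 0.1, the lowest possible with 3 libraries against 3). These genes share part of their sequence, so the ratio also depends on how shared reads were divided. PIP2;7 to PIP2;8 had FPKM ratios of 1084, 1012 and 759 in *bron-2* and 1414, 1214 and 1284 in wild type (exact permutation p = 0.1). Both genes had already been called higher in *bron-2* from the same values, so this ratio adds no separate evidence. TIP1;1 to TIP1;2 overlapped, with FPKM ratios of 1.16, 1.17 and 1.16 in *bron-2* and 1.05, 1.14 and 1.19 in wild type (exact permutation p = 0.5). Among the 1487 genes averaging 100 FPKM or more, a group also chosen after the data were seen, 5.04% were higher in *bron-2* at the unadjusted threshold of limma and the median log2 fold change was -0.0003.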
